A study of Mus musculus with 9 samples.

Results

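Toll-like receptors other than *Tlr4* were followed in unsorted mouse lung tissue after transplantation. They are the 9 genes *Tlr1*, *Tlr2*, *Tlr3*, *Tlr5*, *Tlr6*, *Tlr7*, *Tlr8*, *Tlr9* and *Tlr13*. Every non-control probe whose accession belongs to one of these genes was taken, which gave 14 probes among the 56601 tested and 9 genes among the 22909 that could be named. Each of the 9 genes was measured. On all 9 arrays 12 of the 14 gave signals well above background, while the *Tlr8* probe did so on 4 and 1 of the *Tlr7* probes on 1. No filter on low signals was applied, so all 14 probes were tested.

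The 3 groups of left lungs from male mice had 3 arrays each, with tissue of 1 lung on an array. Each lung was divided into a specimen for histology and another for RNA. In the OB group a C57BL/10 lung had been placed in a C57BL/6 recipient and histology showed obliterative bronchiolitis, a fibrous closure of the small airways after lung transplantation. The non-OB group had the same donor and recipient strains without that lesion. Both strains share the major histocompatibility type, and the study describes them as mismatched at minor histocompatibility antigens. Other differences between the strains were not examined here. Sham mice had a thoracotomy and no transplant. All 9 lungs were taken on day 21, and no antibiotics were given to the transplanted mice. OB and non-OB lungs were told apart by histology after the same operation, so this contrast is between outcomes and not between treatments. By the labels every array, sham included, has C57BL/10 as donor and C57BL/6 as recipient, while a supplementary figure of the study names sham 1 as C57BL/10 and sham 2 and sham 3 as C57BL/6.

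Toll-like receptors are innate sensors. Those at the cell surface read microbial lipids and proteins, with TLR2 pairing with TLR1 or TLR6 to bind lipoproteins and TLR5 binding bacterial flagellin. The others sit in endosomes and read nucleic acids: TLR3 double-stranded RNA, TLR7 and TLR8 single-stranded RNA, TLR9 DNA with unmethylated CpG motifs, and TLR13, which mice have and humans lack, a stretch of bacterial ribosomal RNA. UNC93B1 carries the endosomal receptors to their compartment. Most signal through the adaptor MYD88 to NF-κB and interferon regulatory factors, and TLR3 through TICAM1. In the lung, macrophages, dendritic cells and other leukocytes carry most of them, and epithelium carries some.

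Some of the genes lie side by side. *Tlr1* and *Tlr6* neighbour each other on chromosome 5 and *Tlr7* and *Tlr8* on chromosome X, with 0 annotated genes between the members of either pair in the RefSeq table for GRCm38.p6. *Tlr13* is also on chromosome X, *Tlr2* is on 3, *Tlr5* on 1, *Tlr3* on 8 and *Tlr9* on 9.

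The promoters of the 5 genes that were called higher in OB than in sham are shown because these genes moved in the same direction. Each window of 300 bases runs from upstream of an annotated start to just past it, on the gene's own strand, from RefSeq sequence of GRCm38.p6. Where 2 starts are listed, for *Tlr1* and *Tlr6*, the first listed is printed. The following motifs were searched on both strands: the PU.1 core GAGGAA, the interferon element GAAANNGAA, the NF-κB site as GGGACTTTC or GGGAATTTC, the AP-1 site TGACTCA and the gamma-activated site TTCNNNGAA. Capitals mark every match, and a match on the opposite strand is printed as its reverse complement. The windows are *Tlr2* chr3:83841559-83841858 on the minus strand, *Tlr1* chr5:64933509-64933808 on the minus strand, *Tlr6* chr5:64959117-64959416 on the minus strand, *Tlr8* chrX:167264280-167264579 on the minus strand and *Tlr13* chrX:106143025-106143324 on the plus strand.
Tlr2: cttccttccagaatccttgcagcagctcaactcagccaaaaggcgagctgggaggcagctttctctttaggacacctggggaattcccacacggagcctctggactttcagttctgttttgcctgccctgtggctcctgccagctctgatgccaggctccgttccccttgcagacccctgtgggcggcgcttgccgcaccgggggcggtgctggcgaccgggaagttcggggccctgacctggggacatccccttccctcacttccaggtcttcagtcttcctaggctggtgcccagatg
Tlr1: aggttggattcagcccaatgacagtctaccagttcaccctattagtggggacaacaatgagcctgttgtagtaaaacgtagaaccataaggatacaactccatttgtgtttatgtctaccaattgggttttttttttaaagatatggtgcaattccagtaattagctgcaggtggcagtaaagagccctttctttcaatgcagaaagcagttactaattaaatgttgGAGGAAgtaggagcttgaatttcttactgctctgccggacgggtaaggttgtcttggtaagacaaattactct
Tlr6: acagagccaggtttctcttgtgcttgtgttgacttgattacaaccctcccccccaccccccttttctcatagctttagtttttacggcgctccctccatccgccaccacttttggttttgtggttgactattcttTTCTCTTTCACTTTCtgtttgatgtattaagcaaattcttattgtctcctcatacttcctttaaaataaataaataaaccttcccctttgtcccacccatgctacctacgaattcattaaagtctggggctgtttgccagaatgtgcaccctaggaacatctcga
Tlr8: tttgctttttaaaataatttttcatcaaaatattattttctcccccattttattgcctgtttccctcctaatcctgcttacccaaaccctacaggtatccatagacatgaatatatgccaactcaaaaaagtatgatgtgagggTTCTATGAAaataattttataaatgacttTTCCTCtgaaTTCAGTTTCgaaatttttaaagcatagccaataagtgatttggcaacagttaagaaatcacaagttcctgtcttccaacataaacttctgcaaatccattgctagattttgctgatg
Tlr13: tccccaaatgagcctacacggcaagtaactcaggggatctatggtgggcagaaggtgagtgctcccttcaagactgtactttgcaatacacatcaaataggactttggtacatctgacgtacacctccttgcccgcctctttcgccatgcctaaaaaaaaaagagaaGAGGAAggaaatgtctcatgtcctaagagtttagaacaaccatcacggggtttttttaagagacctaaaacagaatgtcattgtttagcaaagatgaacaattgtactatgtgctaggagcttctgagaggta

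Among all 32851 promoter windows in the table, 28.3% held the PU.1 core, 8.56% the interferon element, 8.30% the gamma-activated site, 5.20% the AP-1 site and 0.612% an NF-κB site. The PU.1 core stood in the printed windows of *Tlr1* (bases -23 to -18 from the start), *Tlr13* (bases -83 to -78) and, on the opposite strand, *Tlr8* (bases -77 to -72). *Tlr8* also held an interferon element on the opposite strand at bases -67 to -59 and a gamma-activated site at bases -106 to -98. *Tlr6* held a pair of interferon elements on the opposite strand, at bases -115 to -107 and -109 to -101, which share 3 bases. None of the searched strings was matched in the *Tlr2* window, and none in those of *Tlr3* and *Tlr5*. Looser forms of the NF-κB site were not searched. The *Tlr2* window holds GGGAATTCCC and the *Tlr3* window GGGAGTTTCC, which are close to the searched strings without matching them. Such looser forms were not counted in the other windows or over all promoters. In the *Tlr9* window, of a gene that was not called, the PU.1 core stood at bases -112 to -107 and, on the opposite strand, 13 to 18, with an AP-1 site at bases -58 to -52. A gamma-activated site stood at bases -228 to -220 of the second *Tlr1* window, and a pair of them at bases -3 to 6 and 8 to 16 of the second *Tlr6* window. *Tlr7* had no entry. These matches describe letters in the windows, and binding was not measured.

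On each array 58.6% to 69.6% of spots were well above background, with 0 saturated. Hybridisation was on 4 slides: OB 1, non-OB 1, sham 1 and sham 2 on slide 1, OB 2 and non-OB 3 on slide 2, OB 3 and non-OB 2 on slide 3, and sham 3 alone on slide 4. Slide 1 is therefore the only one with both transplanted and sham lungs. Markers of lung epithelium fixed as a list were well above background on every array (12 of 12 genes). Sham 1 stood apart from the other sham lungs in leukocyte markers, whose summed scaled intensity over 5 genes was 23571 there against 47094 in sham 2 and 45693 in sham 3. The values below are log2 of scaled intensity, on which a difference of 1 is a 2-fold change, and each signal depends on its probe as well as on the transcript, so levels are compared between groups and not between genes.

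In OB against sham, *Tlr1*, *Tlr2*, *Tlr6*, *Tlr8* and *Tlr13* rose, *Tlr7* rose by 1 of its 3 probes, and *Tlr3*, *Tlr5* and *Tlr9* were not called. A probe was called at an adjusted p under 0.05 in limma (Benjamini-Hochberg over all probes) with at least a 2-fold change. By this rule 8 of the 14 probes were called higher and 0 lower, against 2.72% of all probes called higher and 2.43% lower. By the probe with the highest mean signal for each gene, used below as its main probe, 5 of 9 genes were called higher. The median log2 change was 1.33 over the 14 probes (1.26 with *Tlr8* at the bound given for it) and 0.08 over all probes. Both medians of the 14 count, at its measured signals, the *Tlr7* probe that was well above background on 1 array. In RNA of unsorted lung tissue, more cells of a type and more RNA per cell cannot be told apart. The genes below are also described by whether their groups overlapped. The share of all probes that did not overlap with sham was not worked out, so these statements have no background rate. With the slide as a fixed block none of the 5 was called, at log2 changes of 2.12 for *Tlr1*, 1.28 for *Tlr2*, 1.40 for *Tlr6* and 1.78 for *Tlr13* and adjusted p for the 5 between 0.0623 and 0.147 from limma, in a fit that called 4 of all probes higher and 0 lower. Within slide 1, OB 1 minus the mean of sham 1 and sham 2 was 1.92 for *Tlr1*, 1.19 for *Tlr2*, 1.29 for *Tlr6* and 1.86 for *Tlr13*. No such value is given for *Tlr8*, whose signal was not well above background on any of the sham lungs.

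**Figure D1:**
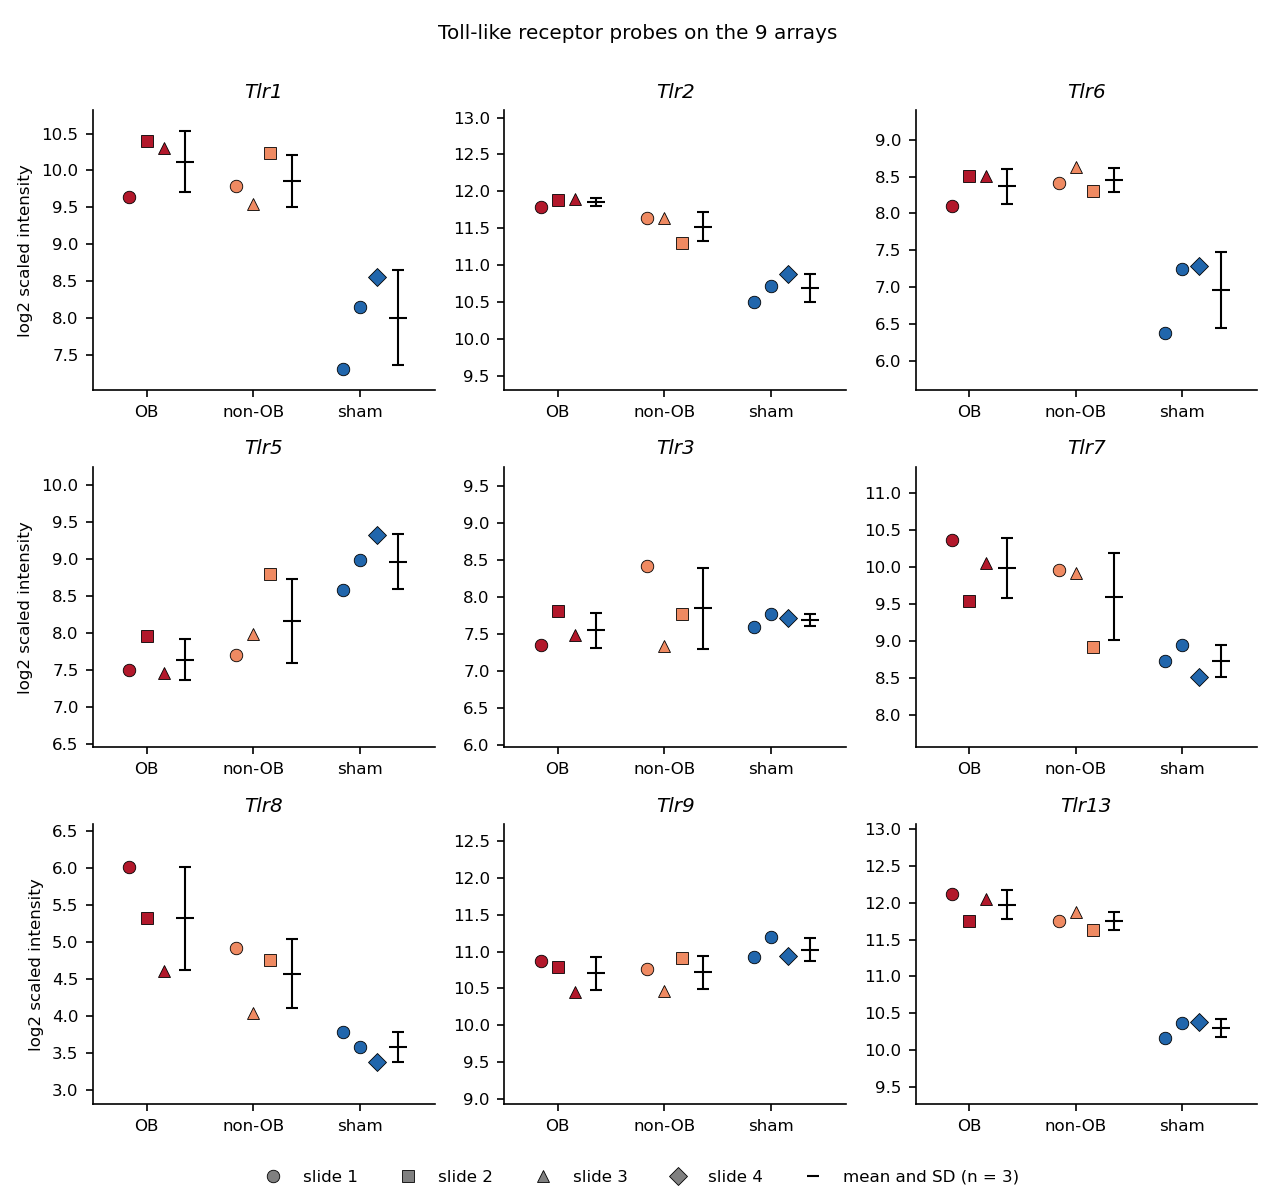
The log2 scaled intensity of the main probe of each gene is plotted for every array, with a symbol for the slide and, beside each group, the mean and SD of its 3 arrays; each panel has its own axis range. All OB and non-OB points lie above all sham points for Tlr1, Tlr2, Tlr6, Tlr8 and Tlr13. The points of Tlr3 mix, and the OB and non-OB points of Tlr9 lie slightly below sham. The share of all probes without overlap with sham was not worked out. The Tlr8 points are measured signals, which were well above background on 4 arrays, none of them sham.

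*Tlr2* forms the pairs that bind lipoproteins. Its log2 signal was 11.79, 11.88 and 11.89 on OB 1, OB 2 and OB 3, then 11.63, 11.64 and 11.30 on non-OB 1, non-OB 2 and non-OB 3, and 10.49, 10.71 and 10.88 on sham 1, sham 2 and sham 3. The OB lungs were the highest, the non-OB lungs next and the sham lungs the lowest, with no overlap between any of the groups. The mean was 11.86 ± 0.05 in OB against 10.69 ± 0.19 in sham (SD, n = 3 each), which is 2.24-fold (95% interval 1.67 to 2.99, adjusted p = 0.0111 from limma). The call was lost when sham 2 was left out (log2 change 1.17, adjusted p = 0.0558).

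*Tlr1*, the partner of TLR2 for triacylated lipoproteins, showed a larger difference and a wider spread. Its signal was 9.64, 10.40 and 10.31 on OB 1 to OB 3, 9.79, 9.55 and 10.23 on non-OB 1 to non-OB 3, and 7.31, 8.15 and 8.56 on sham 1 to sham 3. The transplanted lungs overlapped each other and all lay above the sham lungs, among which sham 1 was the lowest. OB averaged 10.12 ± 0.41 and sham 8.01 ± 0.64 (SD, n = 3 each), a 4.33-fold difference (95% interval 2.40 to 7.79, adjusted p = 0.0164 from limma). A second *Tlr1* probe, for another of its transcripts, rose by 2.10 (adjusted p = 0.0496 from limma). Without OB 2, OB 3 or sham 2 the main probe's change was 1.97, 2.02 or 2.18 and it was no longer called (adjusted p = 0.0614, 0.0645 and 0.0611 from limma).

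*Tlr6*, the partner of TLR2 for diacylated lipoproteins and the neighbour of *Tlr1*, stood at 8.10, 8.51 and 8.51 in the OB lungs, 8.41, 8.63 and 8.31 in the non-OB lungs and 6.37, 7.25 and 7.29 in the sham lungs. Again the OB and non-OB lungs mixed, and every one of them was above the sham lungs, with sham 1 lowest. The OB mean of 8.37 ± 0.24 (SD, n = 3) was 2.64-fold that of sham, 6.97 ± 0.52 (SD, n = 3) on the log2 scale (95% interval 1.69 to 4.12, adjusted p = 0.0265 from limma). The call was lost without OB 2 (change 1.33, adjusted p = 0.0883), OB 3 (1.33, 0.0933), sham 1 (1.10, 0.0553) or sham 2 (1.54, 0.0652). Both *Tlr1* and *Tlr6* were lower in sham 1 than in the mean of sham 2 and sham 3, with differences of -1.05 and -0.89 on the log2 scale, and the leukocyte markers were lower in sham 1 too. Sham 1 was also the lowest sham lung at the main probes of *Tlr2* (-0.30), *Tlr3* (-0.14), *Tlr5* (-0.57), *Tlr9* (-0.15) and *Tlr13* (-0.21), by the same measure. It was not the lowest at those of *Tlr7* and *Tlr8*. The part of strain and of leukocyte content in these differences was not tested.

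*Tlr5*, the flagellin receptor, pointed the other way. Its signal was 7.50, 7.96 and 7.46 in the OB lungs, 7.70, 7.98 and 8.80 in the non-OB lungs and 8.58, 8.99 and 9.32 in the sham lungs. All OB lungs were below all sham lungs, and non-OB 3 lay among the sham values. The log2 difference of OB minus sham was -1.33 (SE 0.33), with means of 7.64 ± 0.28 and 8.96 ± 0.37 (SD, n = 3 each), and it was not called (adjusted p = 0.058 from limma). The adjusted p was under the threshold, and *Tlr5* was called lower, with 75th percentile scaling (0.0327), quantile normalization (0.0203), normexp (0.0104), the filter on dim probes (0.0287), and fits with the slide as a random block (0.0137) or with a trended spread (0.0326), when non-OB 3 was left out (0.032) and when the non-OB arrays were left out (0.048). On slide 1 OB 1 was -1.29 relative to the mean of sham 1 and sham 2.

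*Tlr13* had the smallest adjusted p among the main probes. Its signal was 12.12, 11.75 and 12.05 in OB 1 to OB 3, 11.75, 11.88 and 11.64 in non-OB 1 to non-OB 3 and 10.16, 10.37 and 10.38 in sham 1 to sham 3. The sham lungs lay close together and well below all 6 transplanted lungs. Expression was 3.19-fold higher in OB than in sham (95% interval 2.40 to 4.23, adjusted p = 0.00306 from limma), with means of 11.98 ± 0.20 and 10.30 ± 0.12 (SD, n = 3 each). The second probe gave 7.98, 8.00 and 8.15 on OB, 7.68, 7.87 and 8.00 on non-OB and 5.94, 5.99 and 6.23 on sham, a 3.97-fold difference (95% interval 3.01 to 5.24, adjusted p = 0.00168 from limma). No omission of a single array removed the call of the main probe. It was lost with the slide as a fixed block (1.78, adjusted p = 0.0623). With sham 1 as the only control the change was 1.81 and was not called (adjusted p = 0.0793), in a fit where 1 array stands for sham and is assumed to vary like the other groups.

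*Tlr8*, a sensor of single-stranded RNA, was dim. Its signal was 6.02, 5.33 and 4.61 in OB 1 to OB 3, 4.91, 4.04 and 4.76 in non-OB 1 to non-OB 3 and 3.78, 3.58 and 3.38 in sham 1 to sham 3. It was well above background on 2 of 3 OB arrays, 2 of 3 non-OB arrays and 0 of 3 sham arrays. The sham value is therefore only a bound, set on each array by the lowest signal among probes well above background. Against this bound *Tlr8* was 2.41-fold higher in OB than in sham (adjusted p = 0.0366 from limma, from the measured signals). OB 3, which was not well above background, entered at its measured signal, so this fold is not a strict lower limit. The call was fragile: it was lost without OB 1, OB 2, non-OB 3, sham 1, sham 2 or sham 3, with adjusted p between 0.0528 and 0.121 from limma, and the filter on dim probes removed the probe. A further probe, whose accession is absent from the RefSeq table and which the study's own list of transcripts higher in OB names as *Tlr8*, was well above background on all 9 arrays. It gave 8.87, 8.2 and 8.41 on OB, 8.01, 7.91 and 7.56 on non-OB and 6.48, 6.90 and 6.99 on sham. The 3 groups did not overlap in it, with OB highest and sham lowest, and it was 3.26-fold higher in OB than in sham. Because that list was chosen on these samples as higher in OB, a high value in OB was set by the choice and is no test. The probe is given beside the 14 and is not counted among them.

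*Tlr7*, the other single-stranded RNA sensor and the neighbour of *Tlr8*, differed between its probes. The main probe gave 10.36, 9.55 and 10.06 on OB, 9.96, 9.92 and 8.92 on non-OB and 8.73, 8.95 and 8.51 on sham, so that all OB lungs were above all sham lungs and non-OB 3 lay among the sham lungs. Its log2 change in OB was 1.26 (SE 0.34) and was not called (adjusted p = 0.0717 from limma). It was called without non-OB 3 (adjusted p = 0.0353), with the filter on dim probes (0.0363), with the slide as a random block (0.0126), with a trended spread (0.0345) and by the methods' t-test before adjustment. The second probe, for the same transcript, gave 9.56, 9.07 and 9.29 on OB, 9.11, 8.93 and 8.51 on non-OB and 7.70, 7.60 and 8.03 on sham. In it both transplanted groups lay above sham without overlap, and OB was 2.89-fold higher than sham (95% interval 1.99 to 4.2, adjusted p = 0.0102 from limma). The remaining probe, for another transcript, was well above background on sham 2 alone, at 7.61, against 1.84 to 2.95 on the other arrays, and no fold is given for it.

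*Tlr3* and *Tlr9* were not called in any comparison. *Tlr3*, the double-stranded RNA sensor, stood at 7.35, 7.81 and 7.49 on OB, 8.43, 7.34 and 7.77 on non-OB and 7.60, 7.77 and 7.71 on sham, and the groups overlapped. Its difference of OB minus sham was -0.14 (95% interval -0.80 to 0.51), and that of its second probe 0.43 (95% interval -0.69 to 1.56). *Tlr9*, the CpG DNA sensor, stood at 10.88, 10.79 and 10.45 on OB, 10.76, 10.47 and 10.92 on non-OB and 10.93, 11.20 and 10.95 on sham. Each transplanted lung was below each sham lung, but by little: the difference was -0.32 (95% interval -0.79 to 0.14, adjusted p = 0.388 from limma) in OB. For these 2 genes the intervals exclude a rise in OB as large as 2-fold at the main probe. The direction of *Tlr3* turned with the slide as a fixed block and with the mean of its probes.

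The comparison of non-OB lungs with sham asks what differs after transplantation without the airway lesion. *Tlr1*, *Tlr6* and *Tlr13* rose, and the remaining 6 genes were not called by their main probes. Over the probes, 4 of 14 were called higher and 0 lower, beside 1.81% of all probes called higher and 0.71% lower. The median log2 change was 0.94 (0.88 with *Tlr8* at its bound) against 0.13 over all probes. Here too the *Tlr7* probe well above background on 1 array was counted at its measured signals. *Tlr13* was 2.74-fold higher (95% interval 2.06 to 3.64, adjusted p = 0.00819 from limma), and its second probe 3.47-fold (adjusted p = 0.00389). *Tlr6* was 2.79-fold higher (95% interval 1.79 to 4.35, adjusted p = 0.0357), and *Tlr1* 3.61-fold (95% interval 2.01 to 6.50, adjusted p = 0.0423). The second *Tlr1* probe was not called (log2 change 1.82, adjusted p = 0.116 from limma), nor was the mean of the *Tlr1* probes (adjusted p = 0.0800). The 3 non-OB lungs lay above the 3 sham lungs in each of these main probes. The calls of *Tlr1* and *Tlr6* were lost in limma without any 1 of OB 2, OB 3, non-OB 1, non-OB 2, non-OB 3, sham 1, sham 2 or sham 3, with adjusted p between 0.0576 and 0.142 for *Tlr1* and between 0.0556 and 0.0959 for *Tlr6*, while *Tlr13* kept its call in each.

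Among the genes not called in non-OB lungs, *Tlr2* was 1.78-fold higher than in sham (95% interval 1.33 to 2.38, adjusted p = 0.0593 from limma), with no overlap between the groups. *Tlr7* had a log2 change of 0.87 (95% interval 0.10 to 1.64, adjusted p = 0.25 from limma) and 1.08 at its second probe (adjusted p = 0.0568). *Tlr8* was 1.43-fold higher against the bound for sham (adjusted p = 0.247 from limma), with non-OB 2 at a measured signal not well above background. Its further probe, from the list chosen on these samples, was 2.05-fold higher and was not called (adjusted p = 0.0746 from limma). For *Tlr5* the change was -0.80 (95% interval -1.57 to -0.04, adjusted p = 0.271), for *Tlr9* -0.31 (adjusted p = 0.416) and for *Tlr3* 0.15 (adjusted p = 0.787), all from limma. OB and non-OB were both set against the same 3 sham lungs, so the comparisons are not independent of each other.

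**Figure D2:**
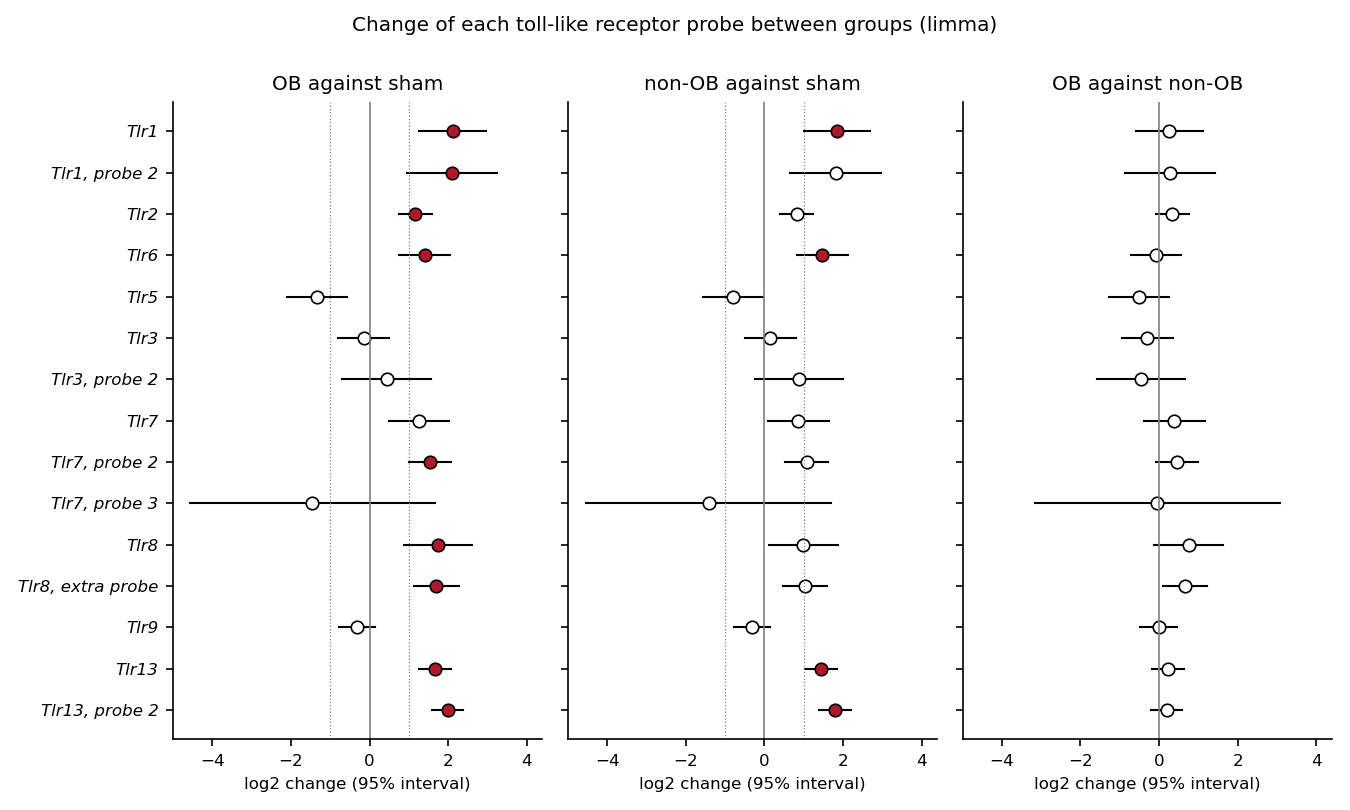
The log2 change of every probe is plotted with its 95% interval from limma for OB against sham, non-OB against sham and OB against non-OB; filled points passed the rule for a call and dotted lines mark a 2-fold change where that was part of the rule. In OB against sham 8 of the 14 probes and the extra Tlr8 probe are filled, and in non-OB against sham 4 are. The extra Tlr8 probe came from a list chosen as higher in OB on these samples. In OB against non-OB none is and the points lie between -0.52 and 0.75. The Tlr8 main probe is drawn at its measured signals, which were not well above background in sham. The Tlr7 probe for another transcript is also drawn at its measured signals, which were well above background on 1 array.

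OB against non-OB asks which transcripts go with the airway lesion among transplanted lungs. None of the 14 probes was called in limma, where 0% of all probes were called at an adjusted p under 0.05 without a fold threshold. At an unadjusted p under 0.05, 0 of the 14 passed, beside 0.542% of all probes higher and 1.4% lower, and the smallest unadjusted p was 0.0832, for *Tlr8*. In 1 of the 14 probes, that of *Tlr2*, all OB arrays were above all non-OB arrays, which holds for 1.09% of all probes. By the methods' t-test *Tlr2* had an unadjusted p of 0.0474. That test put 301 of 56601 probes higher and 711 lower at an unadjusted p under 0.05. The log2 difference of *Tlr2* was 0.33 (95% interval -0.09 to 0.75). Intervals for the others were -0.12 to 1.62 for *Tlr8* (difference 0.75, with 1 of 3 arrays in each group not well above background), -0.38 to 1.16 for *Tlr7* (0.39), -0.59 to 1.11 for *Tlr1* (0.26), -0.19 to 0.63 for *Tlr13* (0.22), -0.48 to 0.45 for *Tlr9* (-0.01), -0.72 to 0.56 for *Tlr6* (-0.08), -0.95 to 0.35 for *Tlr3* (-0.30) and -1.29 to 0.24 for *Tlr5* (-0.52). At the main probes a 2-fold difference lies outside the intervals of *Tlr2*, *Tlr3*, *Tlr6*, *Tlr9* and *Tlr13* and inside those of *Tlr1*, *Tlr5*, *Tlr7* and *Tlr8*. The second *Tlr3* probe had an interval of -1.57 to 0.67, which holds a 2-fold fall. That of the second *Tlr7* probe, -0.08 to 0.99, does not hold a 2-fold difference. The further *Tlr8* probe had a difference of 0.66 and was not called. It was named through a list chosen as higher in OB on these same OB arrays, so its difference here is a description and no test is drawn from it.

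Each of slides 1, 2 and 3 held 1 OB and 1 non-OB array, so the difference can also be read within a slide. *Tlr2* differed by 0.16, 0.59 and 0.25 on slides 1, 2 and 3, *Tlr7* by 0.41, 0.62 and 0.14, and *Tlr13* by 0.37, 0.12 and 0.18. In the main probes of these 3 genes the OB lung was the higher on all 3 slides, as in 5.55% of all probes. The second *Tlr13* probe was not higher on slide 2 (0.30, -0.00043 and 0.29 on slides 1, 2 and 3). *Tlr8* differed by 1.10 and 0.57 on slides 1 and 2, and on slide 3 neither array was well above background. *Tlr5* differed by -0.20, -0.84 and -0.52, with the OB lung the lower on each, as in 13.7% of all probes. *Tlr1* (-0.15, 0.17 and 0.76), *Tlr6* (-0.31, 0.20 and -0.12), *Tlr3* (-1.08, 0.04 and 0.15) and *Tlr9* (0.11, -0.13 and -0.02) had no common direction.

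**Figure D3:**
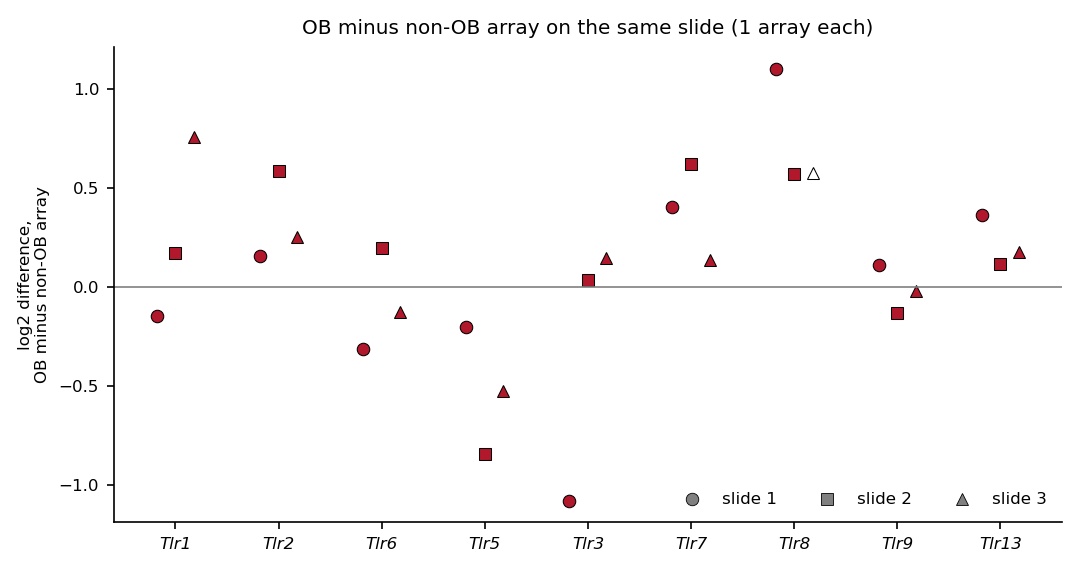
The log2 difference of the OB array minus the non-OB array of the same slide is plotted for each gene on slides 1, 2 and 3. The open point is Tlr8 on slide 3, where neither array was well above background. Tlr2, Tlr7 and Tlr13 lie above 0 on all 3 slides, Tlr5 lies below 0 on all 3, and Tlr1, Tlr3, Tlr6 and Tlr9 fall on both sides.

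With all 6 transplanted lungs against the 3 sham lungs, 6 of the 14 probes were called higher and 0 lower, beside 3.27% and 2.54% of all probes. By main probe these were *Tlr13* (2.96-fold, adjusted p = 0.000932 from limma), *Tlr1* (3.95-fold, adjusted p = 0.00613) and *Tlr6* (2.71-fold, adjusted p = 0.00647). *Tlr2* passed on p and missed the fold threshold narrowly, at 1.99-fold (adjusted p = 0.0100 from limma). *Tlr5* had a change of -1.07 (adjusted p = 0.0684 from limma) and *Tlr7* of 1.06 (adjusted p = 0.0594), neither of them called. *Tlr8* was 1.86-fold higher against the bound for sham and was not called (adjusted p = 0.0582 from limma). In that fold OB 3 and non-OB 2 entered at measured signals not well above background. *Tlr4*, which is not among the 9, had a log2 change of 0.98 with an SE of 1.25 here, and its signal passed the background test on 2 of the 3 sham arrays.

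The genes whose profile over the 9 arrays was most like that of a called receptor were found by the root mean square difference of log2 values, each gene centred on its own mean, over 14738 genes. For *Tlr1* they were *Lck*, a kinase of T cell receptor signalling (0.13), and *Ptpn7* (0.14). *Tlr13* lay nearest to *H2-T-ps* (0.12), *Bcl2l14* (0.13) and the immunoproteasome subunit *Psmb9* (0.13). *Fermt3*, an integrin activator of blood cells, was nearest to *Tlr6* (0.185), and *Olfr812* to *Tlr8* at a larger difference (0.28). The *Tlr8* probe was well above background on only 4 of the 9 arrays, so much of its profile is signal near background. Within the family the smallest differences were between *Tlr6* and *Tlr13* (0.30), *Tlr2* and *Tlr13* (0.30) and *Tlr2* and *Tlr7* (0.33), and the largest between *Tlr1* and *Tlr5* (1.5). All of these are descriptions over 9 arrays in 3 groups.

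Genes that serve the receptors were described as lists in OB against sham. Both other mouse toll-like receptors on the array, *Tlr11* and *Tlr12*, which bind the protozoan protein profilin, were called higher. *Tlr12* rose by 2.54 (adjusted p = 0.0358 from limma). *Tlr11* rose by 3.51 (adjusted p = 0.00121), although its sham signal was well above background on 2 of 3 arrays. Of these calls 1 was lost when any of OB 1, OB 2, OB 3, non-OB 1, non-OB 2, non-OB 3 or sham 2 was left out. Of 8 partners of the surface receptors 1 rose and 1 fell: *Ly86*, which encodes the partner of CD180, rose by 2.11 (adjusted p = 0.0114), and *Cd36*, a scavenger receptor that hands lipids to TLR2, fell by 1.74 (adjusted p = 0.0146). The lipopolysaccharide partners *Cd14* and *Ly96* had changes of 0.54 and 0.34 and were not called. The number of partners called lower became 0 without sham 1 or sham 2 and 2 without non-OB 2 or non-OB 3.

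Of 10 genes for transport and cleavage of the endosomal receptors, 3 rose and 0 fell: *Unc93b1* (1.38, adjusted p = 0.0095), the cathepsin genes *Ctss* (2.6, adjusted p = 0.00168) and *Ctsb* (1.09, adjusted p = 0.00767), all from limma. *Unc93b1* also rose in non-OB lungs, by 1.05 (adjusted p = 0.0413 from limma). *Hsp90b1* and *Cnpy3*, chaperones of most family members, had changes of -0.27 and 0.14 without a call. Of 18 adaptor and kinase genes 3 were higher at an unadjusted p under 0.05 in limma, for which no share of all probes was worked out. None of the 18 was called by limma, and their median change was -0.02. Among them *Myd88* was at 12.04 ± 0.05 in OB and 11.81 ± 0.22 in sham (SD, n = 3 each), a log2 change of 0.23 (95% interval -0.16 to 0.62), and *Ticam1* differed by 0.05. *Ikbke* (1.77, adjusted p = 0.0878) and *Pik3ap1* (1.16, adjusted p = 0.0704) had the largest changes of that list without passing.

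Further along the pathway, 5 of 12 transcription factor genes rose and 1 fell. The interferon regulatory factors *Irf7* (2.14, adjusted p = 0.00357), *Irf5* (1.69, adjusted p = 0.0107) and *Irf8* (1.41, adjusted p = 0.0289) rose, as did *Relb* and *Nfkb2* (1.19 and 1.13). *Jun*, of AP-1, fell by 1.49 (adjusted p = 0.0128), and *Rela*, *Nfkb1* and *Irf3* were not called (-0.35, 0.06 and -0.09). Of 15 inhibitors 4 rose: *Tnip3*, *Socs1*, *Tnfaip3* and *Tnip1*, by 2.33, 1.85, 1.38 and 1.02, with adjusted p between 0.0054 and 0.0356 from limma. Of 21 target cytokines and enzymes 9 rose and 0 fell, with a median change of 0.98 over the list against 0.08 over all probes. The chemokine *Cxcl10* rose by 5.68 (adjusted p = 0.000237) and *Acod1*, the itaconate-producing enzyme of activated macrophages, by 4.75 (adjusted p = 0.0043). *Ccl3*, *Ccl4*, *Il12b*, *Cd86*, *Il10*, *Ccl5* and *Nos2* also rose. *Tnf*, *Il1b* and *Il6* had changes of 0.66, -0.17 and 0.12 without a call, and *Cxcl2* was well above background on 0 arrays. The 5 transcription factors called higher became 2 without OB 2, OB 3 or sham 1, 1 without sham 2 and 3 without sham 3, and the 1 called lower became 2 without OB 1 and 0 without OB 3, sham 1 or sham 2. The 4 inhibitors became 2 without OB 2 or sham 1 and 1 without OB 3, sham 2 or sham 3, and the count of targets moved by less than 1.5 times with any array left out.

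Markers of cell types moved in the same lungs. In OB against sham 4 of 5 leukocyte markers rose (median change 1.33), and their summed intensity ranged from 104847 to 119662 in OB, 81708 to 101324 in non-OB and 23571 to 47094 in sham. Without OB 3 the count was 2. Of 16 macrophage and monocyte markers 9 rose and 0 fell (median 2.13), led by *Ms4a7* and the complement genes *C1qa*, *C1qb* and *C1qc* at 3.25 to 4.16, with summed intensities of 265023 to 275055 in OB, 220825 to 245679 in non-OB and 140574 to 166980 in sham. *Csf1r*, the receptor for macrophage colony-stimulating factor, passed on p (adjusted p = 0.0451 from limma) and missed the fold threshold at 1.74-fold, and *Itgam*, an integrin of myeloid cells, had a change of 0.59 and was not called. Among 10 dendritic cell markers 5 rose, including *Flt3* (3.03) and the conventional type marker *Xcr1*, which was at least 7.08-fold higher, with 0 of 3 sham arrays well above background. *Siglech*, of plasmacytoid dendritic cells, which carry TLR7 and TLR9, had a change of 0.65 without a call. Of 10 T cell markers 9 rose (median 2.06), with summed intensities of 53820 to 66321 in OB, 34573 to 50488 in non-OB and 12428 to 19929 in sham.

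Alveolar macrophage markers had 0 of 8 called higher and 1 lower (median 0.22), with sums of 93498 to 253134 in OB, 51019 to 225860 in non-OB and 60552 to 86708 in sham. None of 9 matched neutrophil markers and none of 10 B cell markers was called by limma (medians -0.11 and -0.18), with 2 and 1 lower at an unadjusted p under 0.05, and *Ngp* gave a signal above background on 0 arrays. The neutrophil sums were 63209 to 91490 in OB, 90289 to 187874 in non-OB and 89790 to 108199 in sham, and the B cell sums 10263 to 22517, 15282 to 27633 and 12284 to 28742. Of 12 epithelial markers 1 fell and 0 rose (median -0.53), with 6 lower at an unadjusted p under 0.05. For OB against sham the share of all probes at that unadjusted threshold was not worked out. Endothelial markers fell in 8 of 10 genes (median -1.36), with sums of 137676 to 163007 in OB, 172754 to 221379 in non-OB and 362687 to 453256 in sham. Cardiac muscle markers, of a muscle that in mice also sheathes the pulmonary veins, fell in 6 of 8 genes (median -4.30), with sums of 3607 to 10279 in OB, 4323 to 8878 in non-OB and 60197 to 172126 in sham. The endothelial count became 5 without OB 2 or sham 3 and 4 without OB 3, sham 1 or sham 2, and the cardiac count 3 without sham 2 or sham 3. The part that these cell types have in the receptor values was not tested.

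**Figure D4:**
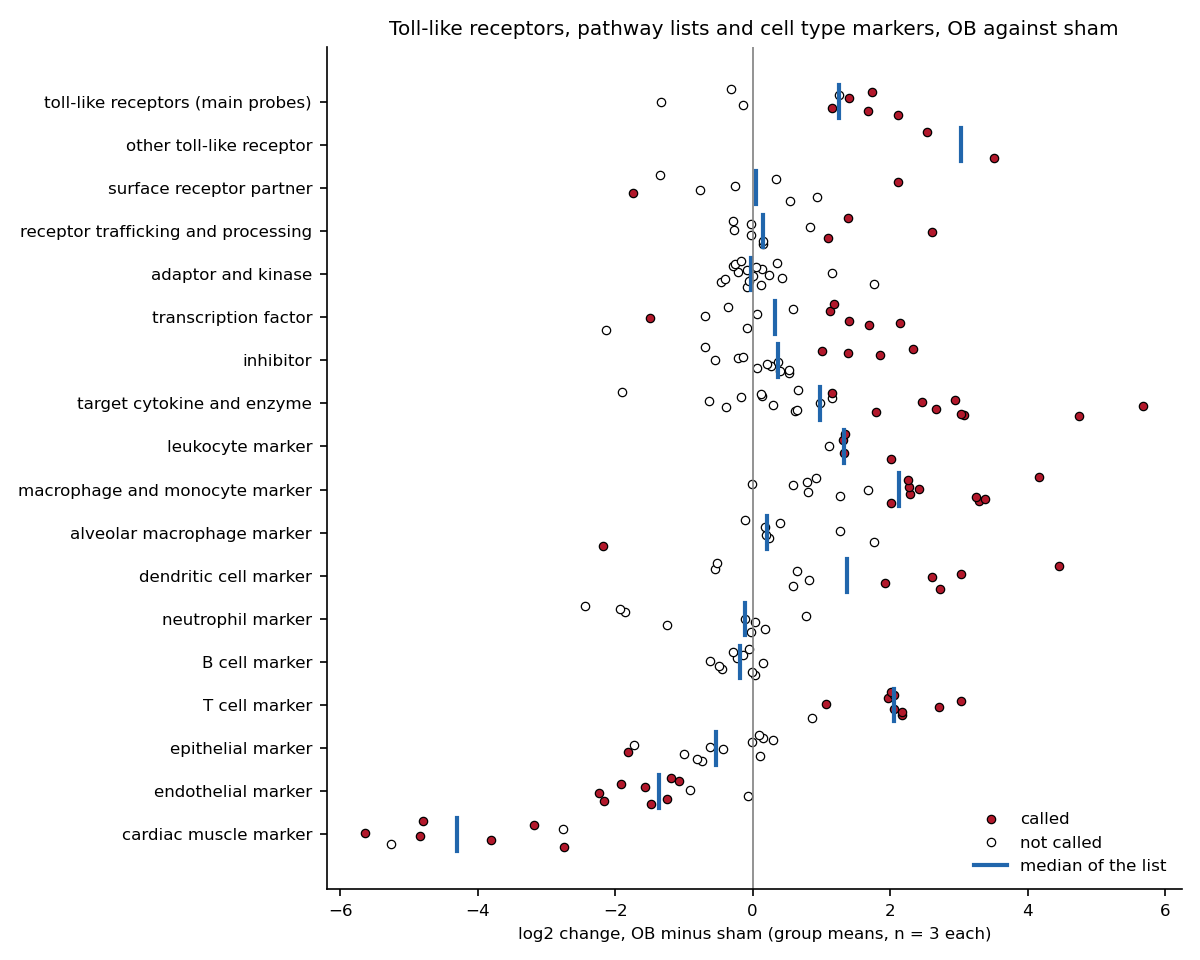
The log2 change of OB minus sham is plotted for every gene of each list, filled where it was called, with a bar at the median of the list; the first line holds the main probes of the 9 receptors. The medians run from -4.30 for cardiac muscle markers to 3.03 for Tlr11 and Tlr12, with 1.26 for the 9 receptors, 1.33 for leukocyte markers, 2.13 for macrophage and monocyte markers and -0.02 for adaptors and kinases.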

How the data were processed

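RNA from a specimen of each of 9 left lungs was hybridised to 1-colour Agilent mouse arrays, 1 lung an array. The deposited scanner files hold spot intensity from Agilent Feature Extraction 12.0.3.1, background-subtracted by the authors' scanner software and not normalized between arrays, and the authors' value table holds the same signal scaled to a trimmed mean. Control spots and outlier spots were left out, repeat spots of a probe were averaged, and 56601 probes remained. Each array was scaled so that its mean, trimmed by 2% at each end, was 2500, as in the study's methods, and log2 was taken of this deposited intensity.

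The 3 group means were fitted with limma 3.58.1 in R 4.3.3, with statmod 1.5.0 for the random block, and p-values were adjusted by Benjamini-Hochberg over all probes; OB against non-OB had no fold threshold. The pooled transplanted lungs were fitted as 1 mean. SDs measure the spread between 3 lungs a group. Standard errors, intervals and p-values from limma use a spread per probe that is pooled over the groups fitted and drawn toward that of all probes. Leaving out an array of a group can therefore change a comparison between the other groups. The number of arrays limits the precision. Accessions were named through the RefSeq table of GRCm38.p6, which matched 32991 probes. A gene's main probe is the one with the highest mean signal over all arrays. Tables and figures used Python 3.11.15, numpy 2.4.6, pandas 2.3.3 and matplotlib 3.10.9.

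The receptors and all gene lists were chosen with earlier results of these data known. The text names every probe of the 9 receptors, up to 3 called genes of each pathway list with the largest change in OB against sham, and up to 3 genes most like each called receptor. The genes most like *Tlr2* are not reported here. Any other gene named was chosen after its values were seen. Alternatives were other scalings (75th percentile, quantile, normexp with an offset of 50), the authors' value table, a filter on dim probes, the slide or replicate number as a block, a trended spread, only the arrays compared, the methods' t-test, another fold threshold, sham 1 as the only control, the mean of a gene's probes and each array left out. Leaving out arrays in the list counts was chosen after seeing the data. The main fit was also run on simulated data with independent noise on each array and no effect of the slide. That check therefore does not cover slide effects.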

Additional observations from a re-analysis of the deposited data

How the results depend on the processing

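Counts are of the 9 genes by main probe. In OB against sham, where 5 were called higher, 3 were with normexp and quantile normalization, 3 with only the arrays compared, 2 with the methods' t-test after Benjamini-Hochberg, and 0 with the slide as a fixed block or with sham 1 alone. With single arrays left out the count ran from 1 to 5: 2 without OB 2, 3 without OB 3, 3 without sham 1 and 1 without sham 2. For genes called lower, 0 became 1, *Tlr5*, with 75th percentile scaling, quantile normalization, normexp, the dim-probe filter, the slide as a random block, the trended spread, only the arrays compared and the unadjusted t-test, and ran from 0 to 1 over single arrays (1 without non-OB 3). In non-OB against sham, 3 called higher became 1 with only the arrays compared and 0 with the slide as a fixed block, the t-test after Benjamini-Hochberg or sham 1 alone, and ran from 1 to 3 over single arrays. In OB against non-OB the unadjusted t-test called 1 higher, beside 301 higher and 711 lower of all 56601 probes. For all transplanted lungs, 3 called higher became 1 with the slide as a fixed block, 6 with it as a random block and 5 with the unadjusted t-test, and ran from 3 to 5 over single arrays (5 without non-OB 2 or non-OB 3). Of these, 0 called lower became 1 with 75th percentile scaling, quantile normalization, the dim-probe filter, the slide as a random block, the trended spread and the unadjusted t-test, and ran from 0 to 1 over single arrays (1 without non-OB 3). Leaving out an array, or keeping sham 1 alone (assumed to vary like the other groups), leaves fewer samples; otherwise the cause was not tested.

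Directions turned only where the gene was not called in that comparison. *Tlr3* in OB against sham was 0.053 with the slide as a fixed block and 0.14 as the mean of its probes, and in non-OB against sham it ran from -0.14 (without non-OB 1) to 0.41 over single arrays. For all transplanted lungs *Tlr3* was -0.088 with quantile normalization, -0.063 with normexp, and from -0.14 to 0.075 over single arrays. In OB against non-OB, *Tlr9* was 0.027 with 75th percentile scaling, 0.030 with quantile normalization and from -0.14 to 0.11 over single arrays, and *Tlr6* ran from -0.15 to 0.057.

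With the replicate number as a block, 5 were called higher in OB against sham, 2 in non-OB against sham, where *Tlr6* was lost (adjusted p = 0.0535 from limma), 0 in OB against non-OB and 3 in all transplanted lungs. Deviations of same-numbered arrays correlated between -0.40 and 0.28, so the numbers were not taken as pairs. *Tlr8* lay near background, and its measured change in OB was 0.36 with normexp, its offset of 50 and quantile normalization together; these were not tested apart. Quantile normalization moved the median of all probes in non-OB against sham from 0.13 to -0.02.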
